A study of Mus musculus with 13 samples.

Results

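The H2 genes, the mouse genes of the major histocompatibility complex (MHC), were taken as every gene of the deposited table whose name begins with H2-, which gave 43 of 43629 genes, all on chromosome 17 (GRCm38). RNA sequencing had been done on 13 libraries from separate mice: 5 thymic lymphomas of Atm-/- mice (129S6/SvEv), which lack the DNA damage kinase ATM, 5 thymic lymphomas of Rag2c/c p53-/- mice (mixed C57BL/6 and 129S6/SvEv), which lack p53 and carry a RAG2 recombinase protein without its C terminus, and thymuses of 3 WT mice (C57BL/6) that also belong to another series. All material was dissociated thymus or thymic tumor tissue, without sorting, and ages were not given. Strain and genotype changed together between the groups and cannot be told apart in any comparison below. In comparisons with WT thymus, tumor against normal tissue and membership of the other series changed with them as well. The label naming the tissue source calls the WT samples lymphoma as well, whereas their titles and tissue label give normal thymus, and the latter was used.

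MHC class I molecules pair a heavy chain with β2-microglobulin and display peptides from inside the cell to CD8+ T cells. Classical class I genes (H2-K, H2-D) are active in almost every nucleated cell, and the nonclassical genes of the Q, T and M regions encode related chains with narrower expression and more specialized ligands. Class II molecules are αβ heterodimers of antigen-presenting cells and thymic epithelium that show peptides from outside the cell to CD4+ T cells. In the thymus both classes select developing T cells, and the transactivators NLRC5 and CIITA switch on class I and class II genes respectively.

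Of the 43 genes, 28 reached a normalized count of 10 in at least 3 libraries and were tested with limma together with the other genes above that level (15872 in all). They comprised 19 class I genes (3 classical and 16 nonclassical) and 9 class II genes (4 classical and 5 accessory). A gene was said to have changed where the adjusted p was below 0.05, the log2 fold change was at least 1 in size and the mean was at least 10 in a group compared. The other 15 genes never exceeded a value of 6. Among these, H2-M1, H2-M9, H2-M10.2, H2-M10.3, H2-M10.4 and H2-M10.6 were listed at 0 in all 13 libraries, and the remaining 9 (H2-M5, H2-M6-ps, H2-M10.1, H2-M10.5, H2-M11, H2-Ea-ps, H2-Pa, H2-Pb and H2-Ke6) had at least 1 read in some library. H2-Ke6 carries the name of the region but encodes a steroid dehydrogenase.

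Each column of normalized counts summed to between 19788898 and 21591289. Sequencing depth under these columns was uneven: 1 read was worth 3.24 normalized counts in WT replicate 2 and 3.38 in Rag2c/c p53-/- replicate 2, which corresponds to fewer reads than in any other library whose depth could be estimated, and could not be resolved in 3 of the deeper libraries. The 6 T lineage markers summed to 93344-151407 in WT thymus, 62464-116005 in Atm-/- lymphomas and 73340-136352 in Rag2c/c p53-/- lymphomas, and only Cd8a among them changed, in Atm-/- lymphomas. Atm had 1559-2274 normalized counts in WT and 208-732 in Atm-/- libraries (log2 fold change -2.06, adjusted p = 0.0017), but it was also lower in Rag2c/c p53-/- lymphomas (439-1315, log2 fold change -1.16, adjusted p = 0.0441), whose values overlapped with those of Atm-/- lymphomas (log2 fold change between them -0.89, adjusted p = 0.135). Its count therefore does not by itself tell the lymphomas apart. Set against WT, the gene-level count of Trp53 (4387-6341 in WT, 2018-5461 in Rag2c/c p53-/-) did not check the p53 label (log2 fold change -0.57, adjusted p = 0.131). Trp53 was higher in Atm-/- lymphomas (6853-11318) than in Rag2c/c p53-/- lymphomas (log2 fold change 1.38, adjusted p = 0.00328), without overlap. Rag2 fell in both lymphomas (means 427.2 and 538.4 against 4703.3 in WT).

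More H2 genes were lower than higher in both lymphomas. In Atm-/- lymphomas 17 of the 28 tested genes changed against WT thymus, 4 upward and 13 downward, where 29.5% of all tested genes changed, 12.6% upward and 17% downward. In Rag2c/c p53-/- lymphomas 17 of 28 changed, 1 upward and 16 downward, where 23.6% of all tested genes changed, 9.77% upward and 13.9% downward. The median log2 fold change was -1.36 for class I and -0.47 for class II genes in Atm-/-, and -1.45 and -1.02 in Rag2c/c p53-/- lymphomas, against -0.02 over all genes tested in either comparison. H2-Q3, H2-Q10 and H2-Bl passed the filter mainly through the group in which they were high and had to differ. Without these 3 genes the counts were 14 of 25 in Atm-/- lymphomas and 17 of 25 in Rag2c/c p53-/- lymphomas. Both comparisons used the same 3 WT libraries, so the 12 genes called in both (H2-K1, H2-K2, H2-Q4, H2-Q5, H2-Q6, H2-Q7, H2-T24, H2-T23, H2-T3, H2-M3, H2-DMb2 and H2-Ob) are not independent repeats. The share of all tested genes called in both was not computed, so the number 12 is not read as particular to H2 genes. In a dissociated tissue fewer cells of a type and less RNA per cell cannot be told apart.

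**Figure D1:**
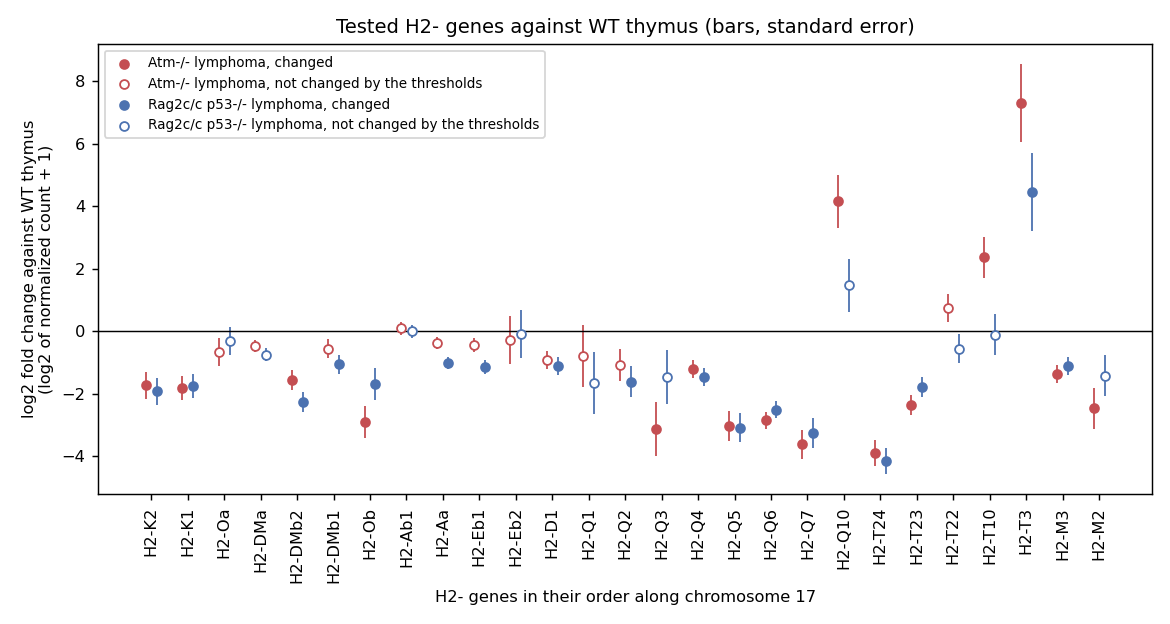
Log2 fold changes against WT thymus of tested H2 genes, Atm-/- lymphomas beside Rag2c/c p53-/- lymphomas, with standard errors as bars, filled where the gene passed the thresholds and open where it did not. Class I genes spread from -4.14 for H2-T24 to 7.31 for H2-T3, and class II genes lie at or below 0 apart from H2-Ab1. H2-Bl is left out because WT thymus was at 0, 0 and 1.

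H2-K1 and H2-D1, the classical class I heavy chains, were among the most abundant H2 transcripts of WT thymus per kilobase of exon, at 2655 ± 225 and 2854 ± 238 normalized counts per kilobase (SD, n = 3). H2-K1 had 7355, 8560 and 7484 normalized counts in the 3 thymuses, 1632, 2074, 3057, 2886 and 1746 in Atm-/- lymphomas and 1081, 3685, 1765, 4376 and 2105 in Rag2c/c p53-/- lymphomas. Every lymphoma lay below every thymus. H2-K1 was thus 3.53-fold lower in Atm-/- lymphomas (log2 fold change -1.82, SE 0.38, adjusted p = 0.00178) and 3.38-fold lower in Rag2c/c p53-/- lymphomas (log2 fold change -1.76, SE 0.38, adjusted p = 0.00293).

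H2-D1 counted 7048, 8066 and 6965 in thymus, 3081, 3702, 4982, 4155 and 3728 in Atm-/- and 1919, 5846, 2439, 4463 and 3604 in Rag2c/c p53-/- lymphomas. Again no lymphoma reached the lowest thymus, but the distance was smaller than for H2-K1. The log2 fold change was -1.12 (SE 0.29, adjusted p = 0.00942) in Rag2c/c p53-/- lymphomas, in which H2-D1 fell, and -0.92 (SE 0.29, adjusted p = 0.0214) in Atm-/- lymphomas, below the threshold on size. Leaving out Rag2c/c p53-/- replicate 1 took the first to -0.92, so that it was no longer called, and leaving out Atm-/- replicate 3 took the second to -1.01, so that it was. The ratio of H2-K1 to H2-D1 was 1.04-1.07 in the thymuses, 0.468-0.695 in Atm-/- lymphomas and 0.563-0.981 in Rag2c/c p53-/- lymphomas, with no overlap between lymphomas and thymus. H2-K2, which the table lists as a pseudogene next to H2-K1, fell from 473, 465 and 423 in thymus to 71-207 in Atm-/- lymphomas (log2 fold change -1.73, adjusted p = 0.00605) and 51-233 in Rag2c/c p53-/- lymphomas (log2 fold change -1.92, adjusted p = 0.00424).

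**Figure D2:**
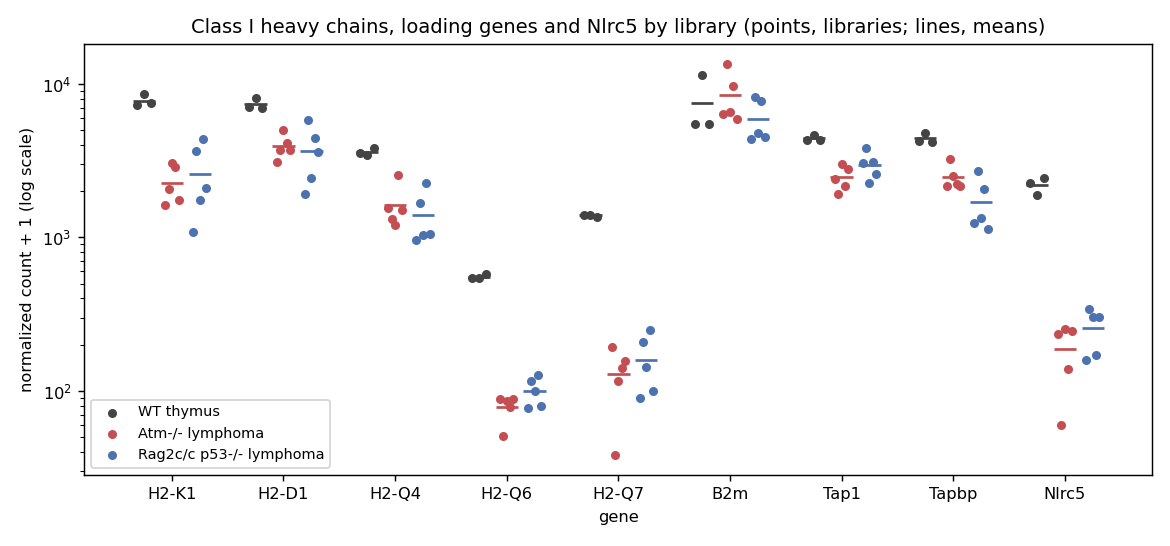
Normalized counts + 1 (log axis) of H2-K1, H2-D1, H2-Q4, H2-Q6, H2-Q7, B2m, Tap1, Tapbp and Nlrc5 in each library, with a line at each group mean. For H2-K1 the 10 lymphomas lie at 1081-4376, all below the 3 thymuses at 7355-8560.

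The proximal promoters of MHC genes share an X box, read by RFX and CREB-type factors, and a Y box whose ATTGG core is read by NF-Y, and several class I promoters also hold an element for interferon-activated factors. Promoter windows of 250 bases before each RefSeq start and a short stretch after it (GRCm38.p6, a C57BL/6J sequence) were searched on both strands for 3 patterns. Only the 250 bases before the start are printed below. These were ATTGG, then the core of a CREB-type site, TGACG, and an interferon-response core made of GAAA repeated after any 2 bases. Windows were found for 31 of the 43 genes and 20 of the 28 tested ones. ATTGG was present in 19 of the 22 windows of tested H2 genes (86.4%) and in 37.4% of 32851 windows of all genes. TGACG was present in 40.9% against 20.8%, and the interferon-response core in 9.1% against 3.4%. Windows of related genes share ancestry and are not independent. The 5 windows printed here belong to genes that fell (H2-K1, H2-T23, and H2-Aa in Rag2c/c p53-/- lymphomas), that passed no test (H2-T22) and that rose (H2-T3), and capitals mark any match on either strand. They lie at chr17:34000348-34000597, chr17:36032702-36032951, chr17:36042743-36042992, chr17:36190152-36190401 and chr17:34287824-34288073, in the order in which the sequences follow, and all are on the minus strand.
H2-K1: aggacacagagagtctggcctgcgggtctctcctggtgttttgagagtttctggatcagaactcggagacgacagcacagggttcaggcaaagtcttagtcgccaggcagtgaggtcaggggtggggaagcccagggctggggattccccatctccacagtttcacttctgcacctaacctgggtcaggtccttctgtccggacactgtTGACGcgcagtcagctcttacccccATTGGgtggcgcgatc
H2-T23: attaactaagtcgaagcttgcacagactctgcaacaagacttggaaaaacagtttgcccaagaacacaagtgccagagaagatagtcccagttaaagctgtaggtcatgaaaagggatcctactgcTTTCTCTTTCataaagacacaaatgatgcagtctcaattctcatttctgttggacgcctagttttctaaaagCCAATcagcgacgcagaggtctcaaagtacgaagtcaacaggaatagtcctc
H2-T22: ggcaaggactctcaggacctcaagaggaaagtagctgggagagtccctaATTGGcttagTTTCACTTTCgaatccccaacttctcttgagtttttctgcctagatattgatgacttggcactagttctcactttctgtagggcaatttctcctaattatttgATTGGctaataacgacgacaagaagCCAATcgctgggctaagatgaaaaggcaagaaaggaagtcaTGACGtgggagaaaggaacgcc
H2-T3: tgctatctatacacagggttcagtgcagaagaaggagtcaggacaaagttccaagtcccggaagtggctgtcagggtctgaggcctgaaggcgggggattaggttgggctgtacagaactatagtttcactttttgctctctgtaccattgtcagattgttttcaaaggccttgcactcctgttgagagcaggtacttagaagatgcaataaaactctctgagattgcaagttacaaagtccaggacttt
H2-Aa: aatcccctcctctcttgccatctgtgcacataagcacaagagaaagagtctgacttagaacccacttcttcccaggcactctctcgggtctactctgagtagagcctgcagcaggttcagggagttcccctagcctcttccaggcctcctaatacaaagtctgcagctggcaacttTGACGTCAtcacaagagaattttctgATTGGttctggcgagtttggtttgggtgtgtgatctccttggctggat
H2-K1 holds the CREB-type core and then the Y box core near its start, H2-T23 and H2-T22 hold the interferon-response core, read here on the opposite strand, and H2-T3 holds none of the 3 patterns. In H2-Aa the first run of capitals is the CREB-type core matched on both strands, overlapping.

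The transactivator genes Nlrc5 and Ciita fell in both lymphomas, whereas the genes that supply and load class I peptides mostly did not pass the thresholds. Nlrc5, the class I transactivator, had 2253, 1881 and 2426 normalized counts in thymus, 233, 59, 253, 137 and 244 in Atm-/- and 157, 338, 303, 171 and 303 in Rag2c/c p53-/- lymphomas. No lymphoma came near the thymuses, and the log2 fold changes were -3.73 (SE 0.44, adjusted p = 3.47e-05) and -3.16 (SE 0.44, adjusted p = 0.000179). Of 12 regulators of MHC genes, 3 fell in Atm-/- lymphomas (Nlrc5, Ciita and Rfxank) and 2 in Rag2c/c p53-/- lymphomas (Nlrc5 and Ciita), and none rose, shares near those of all genes tested (17% and 13.9% lower). Rfxank, a subunit of RFX, was at -1.47 (adjusted p = 8.23e-05) and -0.67 (adjusted p = 0.0168). Irf1, an interferon-activated factor, was at 0.01 (adjusted p = 0.98) and -0.21 (adjusted p = 0.333). Other regulators missed only the threshold on size. Creb1 was at -0.91 (adjusted p = 0.000589) and -0.74 (adjusted p = 0.00304). Rfx5 was at -0.91 (adjusted p = 0.0132) in Atm-/- lymphomas. In Rag2c/c p53-/- lymphomas Irf2 was at -0.84 (adjusted p = 0.00491), Nfyb at -0.46 (adjusted p = 0.0179) and Nfyc at 0.43 (adjusted p = 0.0231).

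Among 14 genes of peptide supply and class I loading, limma called 0 in Atm-/- lymphomas and 1 in Rag2c/c p53-/- lymphomas. An unadjusted p under 0.05 was found for 4 and 6 of these genes, and for 8386 and 7509 of all 15872 tested genes. Of all tested genes 29.5% and 23.6% changed. Some of the 14 genes missed only the threshold on size. Calr was at 0.675 (adjusted p = 0.0176) in Atm-/- lymphomas, and Pdia3 at 0.51 (adjusted p = 0.0209) and 0.49 (adjusted p = 0.0308). In Rag2c/c p53-/- lymphomas Tap2 was at 0.63 (adjusted p = 0.044) and Erap1 at -0.93 (adjusted p = 0.0345). B2m, the light chain of every class I molecule, had 5465, 11490 and 5455 normalized counts in thymus, 5924-13601 in Atm-/- lymphomas and 4377-8261 in Rag2c/c p53-/- lymphomas. The groups overlapped, and the highest thymus was the shallow replicate 2 (log2 fold changes 0.20, adjusted p = 0.651, and -0.29, adjusted p = 0.515). Tapbp, tapasin, which holds empty class I molecules at the peptide transporter, fell in Rag2c/c p53-/- lymphomas (log2 fold change -1.47, adjusted p = 0.000799) and stood at -0.86 in Atm-/- lymphomas (adjusted p = 0.0148), under the threshold on size. Tap1, a subunit of that transporter, stood at -0.86 (adjusted p = 0.00199) and -0.60 (adjusted p = 0.0204), and the immunoproteasome subunit gene Psmb8 at 0.44 (adjusted p = 0.158) and 0.18 (adjusted p = 0.592). The median of the 14 genes was 0.21 and 0.05.

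Most Q-region genes were lower in the lymphomas. H2-Q7, which encodes a Qa-2 antigen, counted 1399, 1407 and 1366 in thymus, 191, 37, 115, 139 and 155 in Atm-/- and 89, 206, 142, 249 and 98 in Rag2c/c p53-/- lymphomas. H2-Q6 counted 545, 543 and 576 in thymus, 50-88 in Atm-/- lymphomas and 76-125 in Rag2c/c p53-/- lymphomas. Neither gene had a lymphoma within reach of the thymuses. H2-Q7 was 12.3-fold lower in Atm-/- lymphomas (log2 fold change -3.62, SE 0.48, adjusted p = 7.86e-05) and 9.54-fold lower in Rag2c/c p53-/- lymphomas (-3.25, SE 0.48, adjusted p = 0.000258), and H2-Q6 was 7.23-fold and 5.69-fold lower (adjusted p = 8.50e-06 and 3.79e-05). H2-Q5 fell from 124, 104 and 137 to 8-25 and 7-22 (log2 fold changes -3.04 and -3.08, adjusted p = 0.000261 and 0.000349).

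H2-Q4, more abundant in thymus, fell less: 3532, 3466 and 3833 normalized counts in thymus stood against 1204-2568 in Atm-/- lymphomas and 965-2258 in Rag2c/c p53-/- lymphomas (log2 fold changes -1.20 and -1.45, SE 0.29 in both, adjusted p = 0.00473 and 0.00185). H2-Q2 counted 3094, 3593 and 3154 in thymus, 2224, 1873, 901, 3258 and 730 in Atm-/- and 924, 841, 1569, 2290 and 510 in Rag2c/c p53-/- lymphomas. Here 1 Atm-/- lymphoma lay within the range of the thymuses. Its log2 fold change was -1.08 in Atm-/- lymphomas (SE 0.50, adjusted p = 0.0934) and -1.61 in Rag2c/c p53-/- lymphomas (SE 0.50, adjusted p = 0.0225). The latter call was lost on leaving out any of the 3 thymuses (-1.65, -1.54 and -1.63). H2-Q1 ranged over 54-354 and 9-602 in the lymphomas around 236, 214 and 286 in thymus (log2 fold changes -0.79, adjusted p = 0.532, and -1.65, adjusted p = 0.202). The scarce H2-Q3 counted 11, 10 and 12 in thymus, 4 in Atm-/- replicate 1 and 0 in the other 4 (adjusted p = 0.0104), and 17, 0, 2, 9 and 2 in Rag2c/c p53-/- lymphomas (adjusted p = 0.202).

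H2-Q10, which encodes a secreted class I molecule best known from liver, went the other way. It counted 4, 3 and 5 in thymus, 124, 66, 141, 141 and 31 in Atm-/- and 4, 88, 5, 25 and 6 in Rag2c/c p53-/- lymphomas. All 5 Atm-/- lymphomas were above the thymuses, as were replicates 2 and 4 of the Rag2c/c p53-/- lymphomas by a clear margin. The rise was 17.9-fold in Atm-/- lymphomas (log2 fold change 4.16, SE 0.85, adjusted p = 0.00168), on a log2(value + 1) scale that understates changes of such low counts, and was not called in Rag2c/c p53-/- lymphomas (1.48, SE 0.85, adjusted p = 0.188). Reads were counted only where they mapped to a single place, and 13.2% of the 90-base stretches of H2-Q6, 13.8% of those of H2-Q7 and 9.77% of those of H2-Q10 recur in another gene, mostly an H2 gene, as do some of H2-Q5, so the split of reads among these 4 genes is uncertain.

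The T region held the highest rises as well as some of the deepest falls. In order along chromosome 17, H2-T24 (36005695-36020560) and H2-T23 (36029773-36032855) fell, H2-T22 passed no test, and H2-Bl (36080115-36084223), H2-T10 (36115876-36121465) and H2-T3 (36185572-36190287) rose in Atm-/- lymphomas. H2-T24 counted 1035, 825 and 1019 in thymus, 53, 37, 71, 75 and 100 in Atm-/- and 113, 64, 45, 29 and 45 in Rag2c/c p53-/- lymphomas. Its levels in both kinds of lymphoma were 14.8-fold and 17.6-fold below thymus (log2 fold changes -3.88 and -4.14, SE 0.42 in both, adjusted p = 1.85e-05 and 2.16e-05). H2-T23, the Qa-1 heavy chain that shows leader peptides of other class I proteins to NK and CD8+ T cells, counted 3968, 3723 and 3818 in thymus, 537, 1457, 746, 844 and 486 in Atm-/- and 1319, 1621, 801, 1105 and 886 in Rag2c/c p53-/- lymphomas. It was 5.10-fold and 3.46-fold lower (log2 fold changes -2.35 and -1.79, SE 0.31 in both, adjusted p = 8.94e-05 and 0.000847), again with no overlap.

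H2-T3 encodes the thymus leukemia (TL) antigen, a class I protein that is present on thymocytes of some mouse strains and missing from those of others. It counted 24, 29 and 36 in the C57BL/6 thymuses and 7360, 16095, 1090, 13298 and 1473 in Atm-/- lymphomas. In Rag2c/c p53-/- lymphomas the values were 40, 415, 3246, 2418 and 1004. Replicate 1 of the latter was barely above the highest thymus, and the others were at least an order of magnitude above it. The rise was 158-fold in Atm-/- (log2 fold change 7.31, SE 1.24, adjusted p = 0.000463) and 22.1-fold in Rag2c/c p53-/- lymphomas (log2 fold change 4.47, SE 1.24, adjusted p = 0.0127), and the latter became 5.47 on the log2 scale without replicate 1. Per kilobase of exon, H2-T3 was at 10.9 ± 2.21 normalized counts in thymus (SD, n = 3) and 2882 ± 2488 in Atm-/- lymphomas (SD, n = 5), next to H2-D1 at 1524 ± 272, and it exceeded H2-D1 in replicates 1, 2 and 4 but not in replicates 3 and 5. No 90-base stretch of H2-T3 recurs in another gene of the reference genome. That reference is of the strain of the thymuses, whereas the lymphomas were wholly or partly of another strain. Whether reads of the other strain were lost or assigned to a wrong gene was not tested.

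H2-T10 and H2-T22 encode near-identical class I chains that carry no peptide and are ligands of γδ T cell receptors. H2-T10 counted 1419, 1361 and 1606 in thymus, 7087, 18232, 3428, 15861 and 3442 in Atm-/- and 338, 1361, 2212, 2814 and 1615 in Rag2c/c p53-/- lymphomas. All Atm-/- lymphomas exceeded the thymuses, whereas the Rag2c/c p53-/- lymphomas fell on both sides of them. The log2 fold change was 2.37 in Atm-/- lymphomas (SE 0.66, adjusted p = 0.0112) and -0.10 in Rag2c/c p53-/- lymphomas (SE 0.66, adjusted p = 0.916). H2-T22 counted 2272, 1907 and 2196 in thymus, 3290, 7639, 1794, 7190 and 1756 in Atm-/- and 930, 1574, 1825, 2095 and 1119 in Rag2c/c p53-/- lymphomas (log2 fold changes 0.75, adjusted p = 0.202, and -0.55, adjusted p = 0.366). Some 9.68% of the 90-base stretches of H2-T10 and 11.8% of those of H2-T22 recur in another gene, 355 of them between this pair, so the split of reads is uncertain.

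H2-Bl was listed at 0, 0 and 1 in thymus, at 1253, 2393, 121, 3740 and 247 in Atm-/- and at 0, 0, 49, 22 and 11 in Rag2c/c p53-/- lymphomas. No fold is given against a group at the level of 1 read, and the adjusted p was 0.000175 for Atm-/- lymphomas and 0.181 for Rag2c/c p53-/- lymphomas. The table classes H2-Bl, H2-T10 and H2-Q5 as polymorphic pseudogenes, genes whose coding sequence is broken in the reference strain but intact in others. Of these, H2-Q5 fell in both lymphomas. In the Atm-/- lymphomas, replicates 1, 2 and 4 were above replicates 3 and 5 for H2-T22, H2-Bl, H2-T10 and H2-T3 alike, a pattern picked out after the values were seen. Genes lying between H2-T24 and H2-T3 without an H2 name were examined too: of 18, 12 could be tested, and 5 rose in Atm-/- lymphomas (Gm11127, C920025E04Rik, Gm7030, BC023719 and Gm20478) and 2 in Rag2c/c p53-/- lymphomas (Gm11127 and Gm17782), with none lower, where 12.6% and 9.77% of all tested genes rose. Gm11127, Gm7030, BC023719 and Gm17782 had means under 10 in thymus and passed the filter through the lymphomas, so they had to differ and their number supports nothing. Gm7030 counted 12, 3 and 10 in thymus and 1284, 448, 19, 1374 and 139 in Atm-/- lymphomas (log2 fold change 5.15, SE 1.49, adjusted p = 0.0131), and was high and low in the same libraries as H2-T3. BC023719 overlaps exons of H2-T10 on the opposite strand, and it was not stated whether reads were counted by strand.

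**Figure D3:**
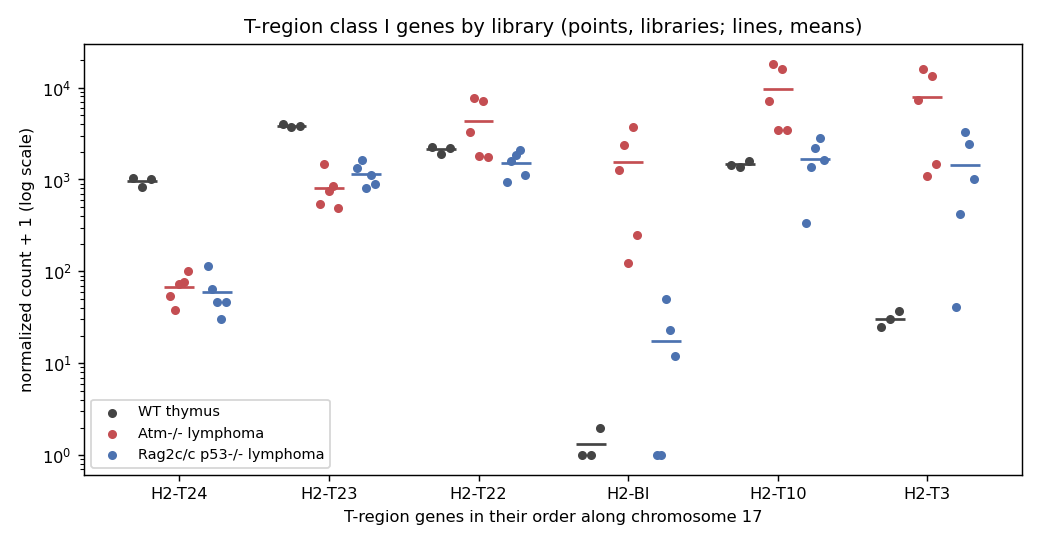
Normalized counts + 1 (log axis) of T-region H2 genes in each library, in their order along chromosome 17, with a line at each group mean. H2-T24 and H2-T23 are lower in all 10 lymphomas than in any thymus, and H2-T3 in Atm-/- lymphomas (1090-16095) is above all thymuses (24-36).

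Of the M-region genes, 2 were expressed above the limit. H2-M3, which presents formylated peptides, fell from 437, 302 and 416 in thymus to 119-180 in Atm-/- lymphomas (log2 fold change -1.36, SE 0.28, adjusted p = 0.00162) and 123-277 in Rag2c/c p53-/- lymphomas (-1.11, SE 0.28, adjusted p = 0.00713). All lymphomas lay below the lowest thymus, and without Rag2c/c p53-/- replicate 3 the latter value was -0.99 and no longer called. H2-M2 fell from 140, 75 and 152 to 26, 7, 23, 24 and 34 in Atm-/- lymphomas (log2 fold change -2.46, SE 0.66, adjusted p = 0.0087). In Rag2c/c p53-/- lymphomas it counted 52, 14, 135, 25 and 59, overlapping with thymus (-1.42, adjusted p = 0.106).

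The classical class II genes divided between H2-Ab1, which differed little, and H2-Aa and H2-Eb1, which were lower in Rag2c/c p53-/- lymphomas. H2-Aa and H2-Ab1 encode the α and β chains of I-A. H2-Aa counted 2264, 1761 and 2365 in thymus, 1632, 1722, 1407, 1608 and 1827 in Atm-/- and 701, 1131, 1360, 1166 and 976 in Rag2c/c p53-/- lymphomas. H2-Ab1 counted 2165, 2596 and 2272 in thymus, 2373, 2156, 2658, 2790 and 2596 in Atm-/- and 1659, 3580, 2059, 2770 and 2078 in Rag2c/c p53-/- lymphomas. The α chain was below all thymuses in each Rag2c/c p53-/- lymphoma, and the β chain overlapped throughout. Log2 fold changes in Rag2c/c p53-/- lymphomas were -1.02 for H2-Aa (SE 0.20, adjusted p = 0.00145) and 0.00 for H2-Ab1 (SE 0.21, adjusted p = 0.993), and in Atm-/- lymphomas -0.37 (SE 0.20, adjusted p = 0.136) and 0.10 (SE 0.21, adjusted p = 0.718). The sign for H2-Ab1 in Rag2c/c p53-/- lymphomas changed with the libraries included. The ratio of H2-Ab1 to H2-Aa was 0.956, 1.47 and 0.961 in thymus, 1.25-1.89 in Atm-/- lymphomas and 1.51-3.17 in Rag2c/c p53-/- lymphomas, the higher thymus value coming from the shallow replicate 2.

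H2-Eb1, the β chain of I-E, counted 2027, 1436 and 2063 in thymus, 1138-1575 in Atm-/- and 522, 824, 1100, 985 and 821 in Rag2c/c p53-/- lymphomas. Its partner α chain gene appears in the table only as H2-Ea-ps, a pseudogene in C57BL/6. H2-Eb1 fell in Rag2c/c p53-/- lymphomas (log2 fold change -1.14, SE 0.22, adjusted p = 0.00172) and stood at -0.44 in Atm-/- lymphomas (SE 0.22, adjusted p = 0.121). H2-Eb2 counted 84-113 in thymus, 27-158 in Atm-/- lymphomas and 20-276 in Rag2c/c p53-/- lymphomas, with log2 fold changes of -0.28 (adjusted p = 0.787) and -0.09 (adjusted p = 0.936). In Atm-/- lymphomas, then, limma called 0 of the 4 classical class II genes, and 0 had an unadjusted p under 0.05. Of all tested genes 29.5% changed in these lymphomas, and 8386 of 15872 had an unadjusted p under 0.05. The calls in Rag2c/c p53-/- lymphomas were close to the threshold on size: that of H2-Aa was lost without WT replicate 1 (-0.97) or 3 (-0.94) or without Rag2c/c p53-/- replicate 1 (-0.88) or 5 (-0.996), and that of H2-Eb1 without Rag2c/c p53-/- replicate 1 (-0.97).

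**Figure D4:**
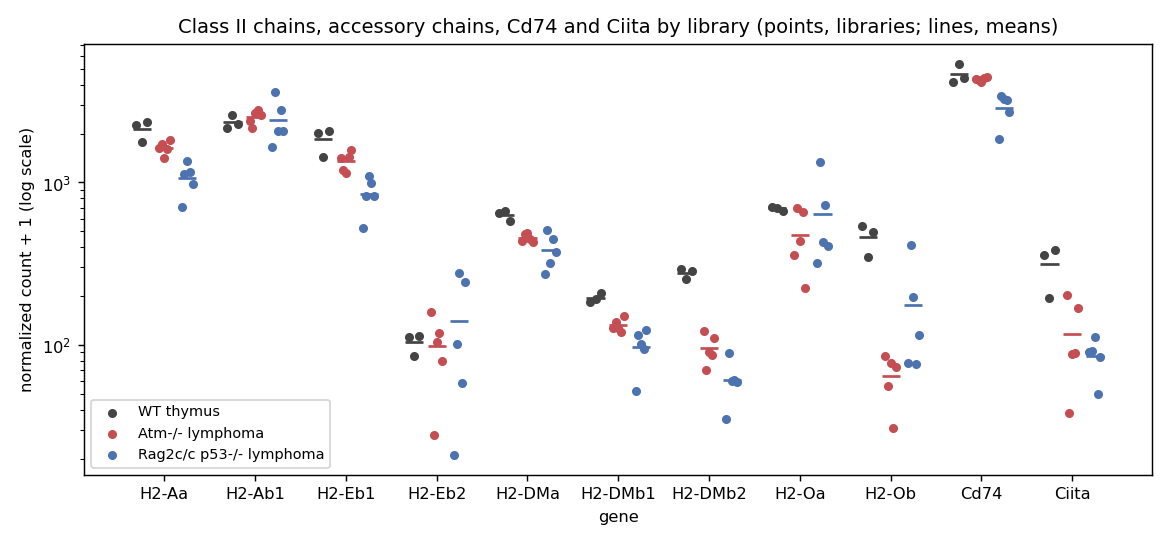
Normalized counts + 1 (log axis) of class II H2 genes, Cd74 and Ciita in each library, with a line at each group mean. H2-Ab1 overlaps across the 3 groups, whereas H2-Aa in Rag2c/c p53-/- lymphomas (701-1360) is below the thymuses (1761-2365).

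Of the 5 accessory class II genes, 2 fell in Atm-/- lymphomas (H2-DMb2 and H2-Ob) and 3 in Rag2c/c p53-/- lymphomas (these and H2-DMb1). Of all tested genes 17% and 13.9% fell in these lymphomas. H2-DM, encoded by H2-DMa with H2-DMb1 or H2-DMb2, exchanges peptides on class II molecules, and H2-O, encoded by H2-Oa and H2-Ob, restrains it. H2-DMb2 counted 293, 253 and 286 in thymus, 69-121 in Atm-/- lymphomas and 34-88 in Rag2c/c p53-/- lymphomas (log2 fold changes -1.56 and -2.25, SE 0.32 in both, adjusted p = 0.00171 and 0.000207). H2-DMb1 counted 182, 192 and 208 in thymus, 120-149 in Atm-/- lymphomas and 51-122 in Rag2c/c p53-/- lymphomas (-0.55, adjusted p = 0.138, and -1.06, adjusted p = 0.0127). Each lymphoma was below each thymus for both genes, and the call of H2-DMb1 was lost without WT replicate 3, where its adjusted p no longer passed (log2 fold change -1.01), or without Rag2c/c p53-/- replicate 1 (-0.84). H2-DMb1 and H2-DMb2 share 209 of their 1589 and 1741 stretches of 90 bases, so the division of reads between them is uncertain. H2-DMa stood at -0.47 (adjusted p = 0.0762) and -0.75 (adjusted p = 0.0112), under the threshold on size, and part of its exons lies opposite the far more abundant Brd2.

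H2-Ob counted 542, 348 and 492 in thymus, 85, 55, 76, 30 and 72 in Atm-/- and 77, 409, 196, 75 and 115 in Rag2c/c p53-/- lymphomas. The Atm-/- lymphomas were all below the thymuses, and replicate 2 of the Rag2c/c p53-/- lymphomas was within their range. H2-Ob fell 7.45-fold in Atm-/- (log2 fold change -2.90, SE 0.52, adjusted p = 0.000696) and 3.22-fold in Rag2c/c p53-/- lymphomas (-1.69, SE 0.52, adjusted p = 0.0216), and the latter call was lost without WT replicate 1 (-1.56) or 3 (-1.63). H2-Oa, its partner, counted 670-706 in thymus, 222-694 in Atm-/- lymphomas and 319-1331 in Rag2c/c p53-/- lymphomas, the highest again being replicate 2 (log2 fold changes -0.66, adjusted p = 0.233, and -0.31, adjusted p = 0.602).

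Ciita, the class II transactivator, counted 356, 195 and 385 in thymus, 202, 37, 87, 88 and 169 in Atm-/- and 90, 91, 111, 49 and 83 in Rag2c/c p53-/- lymphomas, and fell in both (log2 fold changes -1.58 and -1.85, SE 0.49 in both, adjusted p = 0.0188 and 0.00984). Cd74, the invariant chain that guides class II molecules to the endosome, counted 4165, 5386 and 4366 in thymus, 4130-4432 in Atm-/- lymphomas and 1858-3384 in Rag2c/c p53-/- lymphomas (-0.10, adjusted p = 0.682, and -0.71, adjusted p = 0.00808, under the threshold on size). Of 5 class II loading genes, the protease genes Ctsl (log2 fold change 1.62, adjusted p = 0.00328) and Lgmn (1.26, adjusted p = 0.00448) rose in Atm-/- lymphomas, and Lgmn also rose in Rag2c/c p53-/- lymphomas (mean 1467 against 408.3 normalized counts, adjusted p = 0.000593). Of all tested genes 12.6% and 9.77% rose in the respective lymphomas. Among the Rag2c/c p53-/- lymphomas, replicate 1 had the lowest values of H2-Aa, H2-Ab1, H2-Eb1, H2-DMa, H2-DMb1, H2-DMb2 and Cd74. It was also the lowest for the class I genes H2-K1 (1081) and H2-D1 (1919) and for B2m (4377), but not for H2-Ob or H2-T23. This pattern was picked out after the values were seen.

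Class II molecules are carried by B cells, dendritic cells, macrophages and thymic epithelium, and markers of these cells did not all move one way. The 6 B cell markers summed to 1498-1912 normalized counts in thymus, 274-345 in Atm-/- lymphomas and 166-557 in Rag2c/c p53-/- lymphomas, and 4 and 5 of them fell. Of all tested genes 17% and 13.9% fell, and 12.6% and 9.77% rose, in the respective lymphomas. The 6 dendritic cell markers summed to 658-1088, 221-547 and 175-643 (3 and 4 fell), and the 6 thymic epithelial markers to 504-845, 71-525 and 67-908 (3 and 4 fell). In 4 of 5 Rag2c/c p53-/- lymphomas the epithelial sum was mostly Epcam, an adhesion gene of epithelia, at 22, 875, 540, 172 and 750 against 221-283 in thymus (log2 fold change 0.10, adjusted p = 0.94), whereas Krt8 (10-42 against 140-228) and Krt5 (3-34 against 49-151) were lower there than in any thymus. Psmb11, the thymoproteasome gene of cortical epithelium, was listed at 0 in all 5 Atm-/- and in 4 of 5 Rag2c/c p53-/- lymphomas, Foxn1 at 0 in 2 Atm-/- lymphomas, and Ms4a1 and Pax5 at 0 in 1 lymphoma each. The 6 myeloid markers, in contrast, summed to 3288-3634, 6145-10345 and 3610-7521 (4 and 1 rose), and the 6 fibroblast and endothelial markers to 3709-3846, 7802-20727 and 2944-6512 (4 rose in Atm-/-, and 3 rose and 1 fell in Rag2c/c p53-/- lymphomas). Most of this last sum was Pecam1 in thymus (mean 3594 of 3776.7) and in Rag2c/c p53-/- lymphomas (3961.6 of 5119). Pecam1 was not called (log2 fold change 0.43, adjusted p = 0.279, in Atm-/- and 0.05, adjusted p = 0.911, in Rag2c/c p53-/- lymphomas). The genes that rose in Atm-/- lymphomas were Col1a1, Col1a2, Col3a1 and Sparc. Replicate 2 of the Rag2c/c p53-/- lymphomas, the highest of its group for H2-Oa and H2-Ob, was also the highest for the B cell sum (557). It was likewise the highest for the T lineage (136352), class I loading (90680) and thymic epithelial (908) sums. Its dendritic cell (175) and myeloid (3610) sums were the lowest of the group, and it was the shallowest library whose depth could be estimated. In Atm-/- lymphomas the B cell and dendritic cell sums were below those of thymus. Of the 9 class II genes, 2 fell there, H2-Ob and H2-DMb2 (log2 fold changes -2.90 and -1.56), and 7 were not called. Among the latter were H2-Aa at -0.37, H2-Eb1 at -0.44 and H2-Ab1 at 0.10, and Cd74 stood at -0.10. The part of these cells in the H2 results was not tested.

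**Figure D5:**
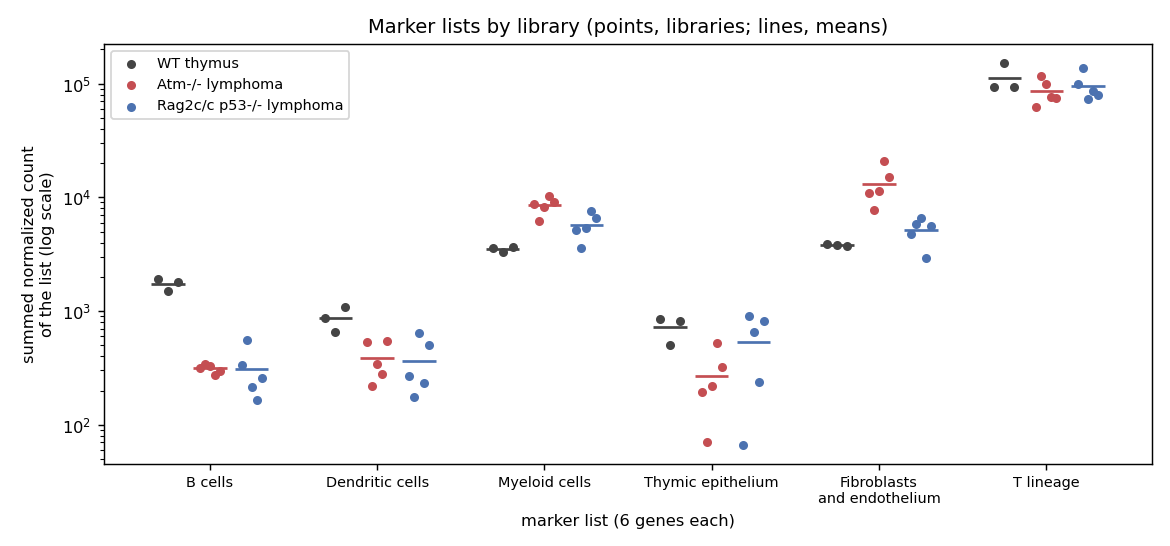
Summed normalized counts (log axis) of each marker list in each library, with a line at each group mean. B cell markers are at 166-557 in the lymphomas and 1498-1912 in thymus, whereas fibroblast and endothelial markers reach 7802-20727 in Atm-/- lymphomas.

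Set directly against each other, the lymphomas differed in few H2 genes. Of the 28 tested genes 3 were higher and 0 lower in Atm-/- than in Rag2c/c p53-/- lymphomas, where 7.84% of all tested genes differed, 3.51% higher and 4.33% lower. Without the 3 genes that passed the filter mainly through 1 side, the count was 1 of 25 (4.0%). The 3 genes were H2-Bl (log2 fold change 6.90, SE 1.19, adjusted p = 0.00253), H2-T10 (2.47, SE 0.58, adjusted p = 0.0145) and H2-Q10 (2.69, SE 0.74, adjusted p = 0.0321), all nonclassical class I. Values of H2-Bl and H2-T10 did not overlap between the lymphomas, as 121 and 3428 were the lowest in Atm-/- and 49 and 2814 the highest in Rag2c/c p53-/-, whereas for H2-Q10 Rag2c/c p53-/- replicate 2 lay within the Atm-/- range. The estimate for H2-Bl ran from 6.22 to 7.63 with 1 lymphoma left out, the lower without Rag2c/c p53-/- replicate 1 or 2 and the higher without replicate 3 (7.58 without Atm-/- replicate 3). The call of H2-Q10 was lost without Atm-/- replicate 1 (2.56), 3 or 4 (2.52 each) and without Rag2c/c p53-/- replicate 1 (2.32), 3 (2.39) or 5 (2.45), and its value was 3.36 without Rag2c/c p53-/- replicate 2. H2-T3 was at 2.84 (SE 1.07, adjusted p = 0.107) and H2-T22 at 1.30 (SE 0.40, adjusted p = 0.0513).

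In the classical class I genes the lymphomas could not be separated: H2-K1 was at -0.06 (SE 0.33, adjusted p = 0.932) and H2-D1 at 0.20 (SE 0.25, adjusted p = 0.675), the sign of each depending on the libraries included. For 9 class II genes limma made 0 calls, although 4 had an unadjusted p under 0.05. Such a p was found for 4157 of all 15872 tested genes in this comparison. H2-Aa (0.65, SE 0.17, adjusted p = 0.0254) and H2-Eb1 (0.69, SE 0.19, adjusted p = 0.0344) were higher in Atm-/- lymphomas by amounts under the threshold on size, next to H2-Ab1 at 0.10 (adjusted p = 0.791) and H2-Ob at -1.21 (adjusted p = 0.102). Among the 12 regulators limma likewise made 0 calls (5 with an unadjusted p under 0.05), Nlrc5 being at -0.56 (adjusted p = 0.377) and Ciita at 0.28 (adjusted p = 0.737).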

How the data were processed

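Polyadenylated RNA of 13 mice was sequenced with a strand-specific kit. Per the labels and the study's methods, the authors demultiplexed reads with bcl2fastq 1.8.3 and aligned them to GRCm38 with STAR 2.4.0g1. They then removed duplicate reads with Picard, counted uniquely mapped reads per gene and normalized with DESeq2 1.6.3. The deposited values are these normalized counts, rounded to whole numbers by the authors and handled here as a score rather than as raw counts. The methods describe the WT thymuses, and the labels of the lymphomas name the same tools. Whether removing duplicates lowered abundant genes more in the deeper libraries than in the shallow ones was not tested. Group means, and the fold changes, log2 fold changes and p-values of the authors' own comparisons in DESeq2, were also deposited by the authors and were not used.

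All 13 libraries were fitted together with limma 3.58.1 (R 4.3.3; trend and robust moderation) on log2(value + 1), with group as the only factor. A gene was tested where 3 or more libraries had a value of 10 or more, and p-values were Benjamini-Hochberg adjusted over all 15872. P-values measure the spread among mice. Fold changes are on the log2(value + 1) scale. Thresholds followed the study's methods. The fit was tested on simulated data with equal depth in all libraries and the same relative spread for all genes. The libraries here differ in depth, and its error rates on them were not tested. Levels per kilobase used the union of annotated exons. Sequence sharing was the share of 90-base exon stretches found in any other gene of the reference genome, which is of the strain of the thymuses. The text names all members, genes of the lists, genes between H2-T24 and H2-T3, and genes overlapping a member. A regulator left out of its list is not reported here. The members and gene lists were chosen with earlier results of these data known. Intervals for depth are not given, since the files hold no raw counts. Alternatives covered scaling, filter, pseudocount, moderation, fold threshold, the samples in the fit and leaving out each library.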

Additional observations from a re-analysis of the deposited data

Results flagged for a closer look

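Among the 56 sets of 5 lymphoma values of a tested H2 gene, 3 had a library far from the others, where chance gives about 1 in 20. All were in Atm-/- lymphomas: H2-Q3 at 4 in replicate 1 with the others at 0, H2-Q6 at 50 in replicate 2 with the next at 77, and H2-M2 at 7 in replicate 2 with the next at 23. At such low values H2-Q3 and H2-M2 rest on few reads, since 1 read was worth 2.29 normalized counts in replicate 2 and 0.85 in replicate 1.

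Against WT thymus the effects in the lymphomas differed, by limma's direct contrast of Atm-/- with Rag2c/c p53-/- lymphomas, for H2-Q10 (2.69 on the log2 scale, adjusted p = 0.0321), H2-Bl (6.90, adjusted p = 0.00253) and H2-T10 (2.47, adjusted p = 0.0145). H2-Q10 and H2-Bl had means of 4 and 0.333 in thymus and passed the filter through the lymphomas, so that they were bound to differ somewhere.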

How the results depend on the processing

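The number of changed H2 genes was 16-18 in Atm-/- lymphomas and 13-18 in Rag2c/c p53-/- lymphomas against WT over all alternatives run, and 2-5 between the lymphomas (5 with no fold-change threshold, 2-4 with 1 library left out). The lowest count in Rag2c/c p53-/- lymphomas, 13, came without WT replicate 3 or without Rag2c/c p53-/- replicate 1. With 1 library left out, class I medians ran from -1.53 to -1.26 in Atm-/- and from -1.66 to -1.34 in Rag2c/c p53-/- lymphomas, and class II medians from -0.56 to -0.44 and from -1.09 to -0.84. Between the lymphomas they ran from 0.08 to 0.34 and from 0.17 to 0.39. With no filter on low values the class II median in Rag2c/c p53-/- lymphomas was -0.54, as 3 rarely detected genes entered. Values that changed sign with a library left out were near 0 and not called: H2-Ab1 in Rag2c/c p53-/- lymphomas against WT (-0.15 to 0.13), and between the lymphomas H2-K1 (-0.34 to 0.17), H2-Ab1 (-0.027 to 0.25) and H2-D1 (-0.004 to 0.40). For single named genes 673 alternative values kept direction and call, 21 lost the call, 1 gained it and 10 changed sign. H2-Q10 between the lymphomas also lost its call with only these groups in the fit (2.69). No paired analysis was possible because the replicate numbers mark separate mice. Depth limits the scarce genes: in the 2 shallowest libraries 1 read was worth over 3 normalized counts, so that H2-Q3, H2-Q10 and H2-Bl rest on at most a few reads in WT replicate 2. H2-Q3 was not tested with a filter of at least 50.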
